A study of Saccharomyces cerevisiae with 49 samples.

Results

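The subject is 36 nuclear genes of Saccharomyces cerevisiae that encode the NADH dehydrogenases and the subunits of respiratory complexes II to V. Members were the probe sets whose platform gene symbol is one of these names, and each of the 36 genes had 1 probe set among the 5470 probe sets (5428 genes) tested. They comprise 3 NADH dehydrogenases, 4 subunits of complex II, 9 of complex III, 7 of complex IV and 13 of complex V. The RNA came from 1 continuous culture of the haploid strain CEN.PK113-7D, mating type a, kept at pH 4.0 and 30 °C with a dilution rate of 0.06 to 0.086 per h, which oscillated with a period of about 4 h. One Affymetrix Yeast Genome 2.0 array was run for each of 49 samples, collected every 5 min. The labels place the first sample at a phase angle of 244.11 degrees and the last at 614.63 degrees, without naming the event at phase 0. The 47 samples of the first pass were divided into 6 windows, each 60 degrees wide, which hold 8 samples apiece except phase 300-360 with 7, and the last 2 samples formed a second pass. There was no treated or mutant group, so each comparison is between stretches of 1 oscillation. Successive samples of 1 culture are not independent cultures, and every p-value measures only the spread between such samples.

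The respiratory chain passes electrons from NADH and succinate through ubiquinone and cytochrome c to oxygen. Budding yeast has no proton-pumping complex I: single-subunit enzymes oxidize NADH instead, Ndi1 on the matrix face of the inner membrane and Nde1 and Nde2 on its outer face. Complex II is succinate dehydrogenase, complex III the cytochrome bc1 complex, complex IV cytochrome c oxidase and complex V the ATP synthase that uses the proton gradient. Core subunits of complexes III to V are encoded in mitochondrial DNA, and those genes are not analysed here.

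Signals are given after each array was scaled to the same median. Array medians of the deposited signals ran from 1456 to 2595. The members were bright: 35 of the 36 lay above the 90th percentile of probe sets by median signal. The median of the 513 other probe sets above it moved between -0.31 and 0.31 on the log2 scale from array to array. It stood at -0.24 in the sample at 354.23 degrees, -0.31 at 2.04 degrees and 0.31 at 93.89 degrees. The members' own median stood at -0.36, -0.52 and 0.39 in those samples. At 109.2 and 116.85 degrees the bright probe sets stood at 0.21 and 0.22, and the members at 0.35 and 0.35. At 47.97 and 55.62 degrees the bright probe sets stood at -0.20 and -0.22, and the members at -0.09 and -0.09. How far this movement of bright probe sets enters the members' values in these or other samples was not tested. At 17.35 degrees, with median scaling, the bright probe sets stood at 0.14 and the members at -0.58, in opposite directions. With quantile normalization both were negative in that sample, at -0.22 and -0.88.

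As window means, most transcripts of every complex were low in phase 0-60 and high in phase 60-120, each window set against the mean of the other 5. In phase 0-60, 33 of 36 members were lower than in the mean of the other 5 windows and 0 were higher (limma, Benjamini-Hochberg adjustment at 0.05), also 0 at an unadjusted p under 0.05. The background is large: 43% of all probe sets were called low and 39.9% high in this window, and 47.8% of the other bright probe sets were called low. The median ratio of the members was 0.771, against 0.981 over all probe sets. The 3 members not called were ATP20, NDE1 and QCR8. In phase 60-120, 33 members were high and 0 low, where 38% of all probe sets were high, 30.7% low, and 34.7% of the other bright probe sets high. ATP1, QCR10 and QCR8 were not called there, and the median ratio of the members was 1.17. The first samples of phase 60-120 were not high with median scaling. The members' median log2 value was -0.04, -0.10 and 0.03 at 63.27, 70.93 and 78.58 degrees and 0.11 at 86.24 degrees. It was 0.39, 0.22, 0.35 and 0.35 in the samples from 93.89 to 116.85 degrees. With quantile normalization it lay between 0.05 and 0.13 across the window. The reference for phase 60-120 includes phase 0-60, so the high calls are not separate from the low ones. Against phase 300-360 alone, 25 members were higher in phase 60-120, as were 30.6% of all probe sets, and that count fell with values as deposited. With quantile normalization the members' median log2 difference was larger in phase 120-180 (0.20) than in phase 60-120 (0.17), so which window is highest depends on the scaling. With sampling time as a linear term, 8 members were high in phase 60-120 in place of 33.

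**Figure D1:**
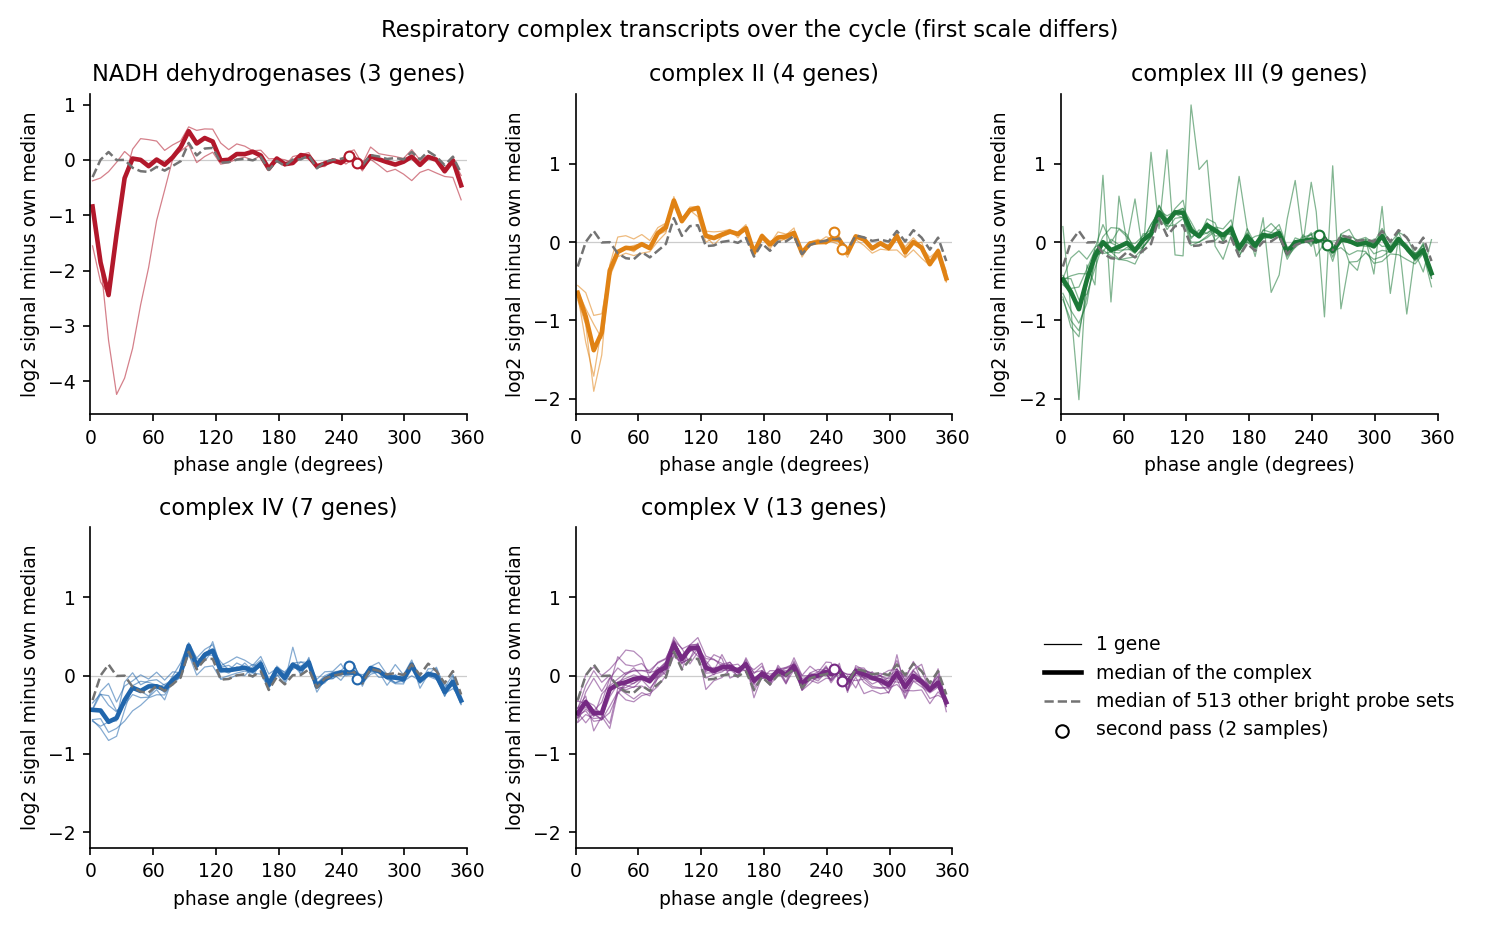
Log2 signal minus each gene's own median (vertical axis) against phase angle in degrees (horizontal axis) in 5 panels, 1 for each complex. Thin lines are genes, thick lines the median of the complex, dashed lines the median of 513 other bright probe sets and open circles the 2 samples of the second pass. The complex medians fall lowest between 2.04 and 25 degrees, deepest for the NADH dehydrogenases, whose panel has a wider scale.

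The other windows held fewer calls. Phase 120-180 had 13 high and 0 low, against 20.5% high and 22.5% low over all probe sets. The 13 were NDE2, 3 of 9 subunits of complex III, 4 of 7 of complex IV and 5 of 13 of complex V. With quantile normalization 23 were high in phase 120-180. The count was 0 with values as deposited, with a term in sampling time or in arrays 1 to 25. Phase 180-240 had 0 called in either direction by limma, against 7.92% high and 6.78% low; at an unadjusted p under 0.05, 2 were high and 0 low. In phase 240-300 NDE2 was high and ATP20 low, against 14.6% and 14.4%. The reference for every window outside phase 0-60 includes phase 0-60, so high calls are not separate from the low calls of phase 0-60. NDE2 differed by -2.78 in phase 0-60 and lay above its reference in every other window, by 0.49 to 0.65. Its median signal of 10007 in phase 240-300 was below the 11216 of phase 60-120. In phase 300-360, ATP5, ATP14, ATP18, ATP20 and TIM11, all subunits of the ATP synthase, were low and 0 members high (1 at an unadjusted p under 0.05). Over all probe sets 13.6% were low, a share near that of the members, and 12.5% high. In this window 35 members lay below their own median at 354.23 degrees, 31 at 346.37, 36 at 338.5 and 35 at 314.9. Only 12 did at 322.77 degrees and 13 at 307.04. Outside it, 33 did at 216.36 degrees, so a high count is not particular to the samples next to phase 0-60. The calls of phase 240-300 and of phase 300-360 were lost with values as deposited and with a term in sampling time.

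The dip and the level after it were also compared directly. Between phase 0-60 and phase 60-120, 35 of 36 members rose, and ATP20 was the exception, where 45.8% of all probe sets and 50.7% of the other bright ones rose and 37.6% fell. The members' median ratio was 1.40, against 1.08 over all probe sets. From phase 300-360 to phase 0-60, 22 members fell and ATP20 rose, against 35.9% falling and 38.1% rising. The 22 became 11 with values as deposited and 3 in arrays 1 to 25, and the rise of ATP20 was not called as deposited or in arrays 26 to 49. From phase 300-360 to phase 60-120, 25 members were higher, against 30.6%, with a median ratio of 1.21. The 11 not called in that last comparison included NDE1 and NDE2, and it gave 0 calls with sampling time as a linear term and 3 with values as deposited. These comparisons share samples. A cosine of the phase angle over all 49 samples was called for 34 members, all but NDE1 and ATP1, where 88.4% of all probe sets were called.

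The dip lay mostly in the first part of its window. Phase 0-60 was split at 30 degrees after the data had been seen, with 4 samples on each side, and each side was set against the windows outside phase 0-60. In phase 0-30, 34 members were low, all but ATP1 and ATP20, with a median ratio of 0.690 against 0.956 over all probe sets, 44.6% of which were low, as were 45.2% of the other bright ones. In phase 30-60, 16 were low and ATP20 was high, against 37.6% low and 38.1% high over all probe sets and 46.8% low among the other bright ones. The members' median log2 difference there was -0.15, and that of the other bright probe sets was also -0.15. Without the sample at 32.66 degrees 9 members were low in phase 30-60, and with values as deposited 2. The lowest sample lay at 17.35 degrees for 16 members, at 2.04 for 10, at 25 for 5 and at 9.7 for 3. With quantile normalization it lay at 17.35 degrees for 33.

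The depth of the early dip differed in size between the complexes as a description. In phase 0-30 the median ratio was 0.266 for the 3 NADH dehydrogenases, 0.468 for complex II, 0.650 for complex III, 0.698 for complex IV and 0.726 for complex V. The ranges of the single subunits overlap between neighbours from complex II to complex V: 0.407 to 0.573, 0.521 to 0.833, 0.586 to 0.824 and 0.676 to 0.974. The 3 NADH dehydrogenases ran from 0.169 for NDE2 to 0.854 for NDE1, a range that spans those of complexes II, III and IV. All subunits of complexes II, III and IV were called low there, and 11 of 13 of complex V. In phase 30-60, 3 of 4 subunits of complex II, 2 of 9 of complex III, 5 of 7 of complex IV and 5 of 13 of complex V were called low. There 37.6% of all probe sets and 46.8% of the other bright ones were low, and most of the members' calls were lost with values as deposited.

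**Figure D2:**
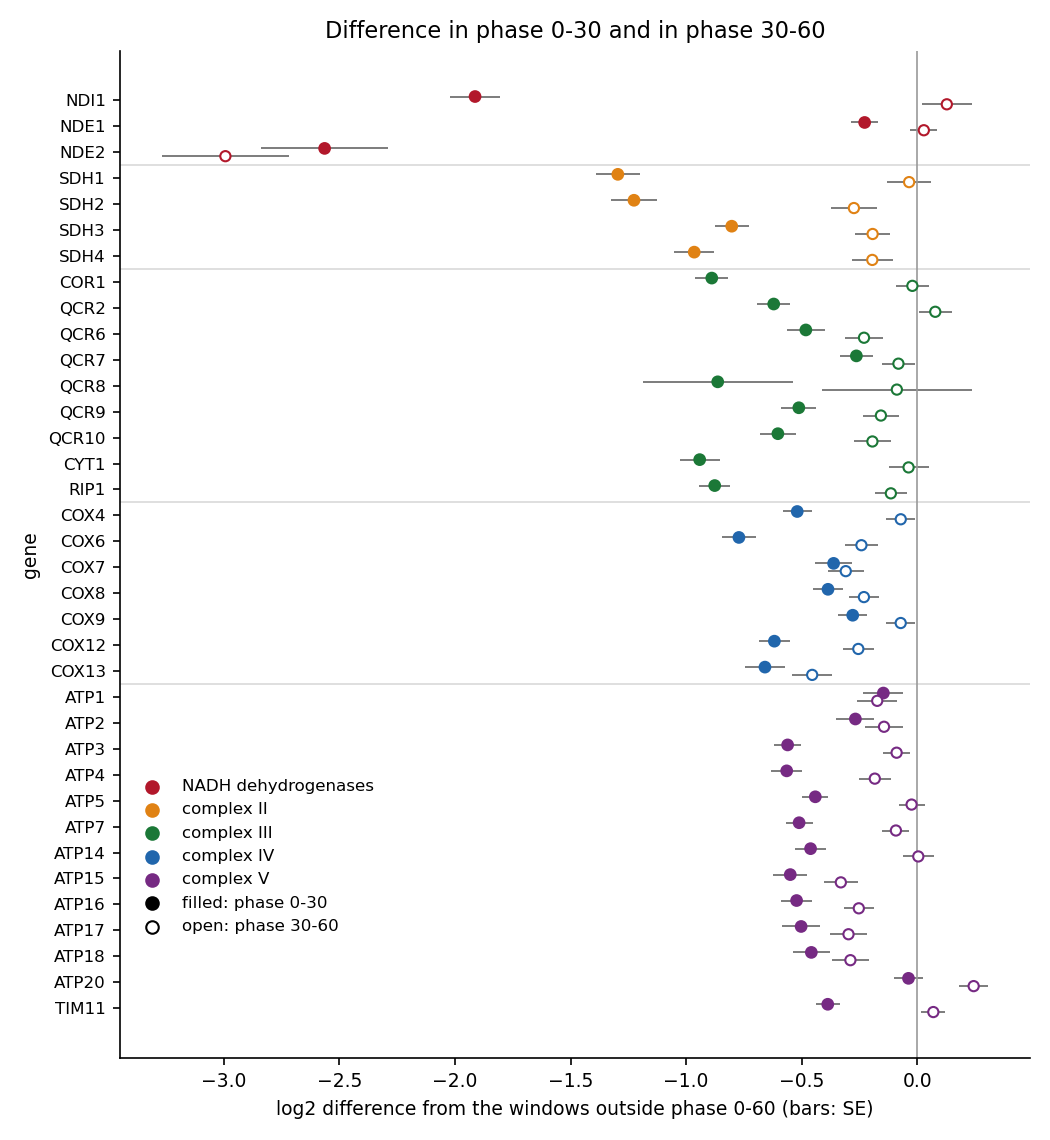
Log2 difference from the windows outside phase 0-60 (horizontal axis, bars are standard errors) for each of the 36 genes (vertical axis), in phase 0-30 (filled, 4 samples) and phase 30-60 (open, 4 samples). Most open points lie near 0 and right of the filled ones; NDE2 is far below 0 in both, at -2.56 and -2.99.

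The 3 NADH dehydrogenases behaved differently from each other. NDI1, the matrix-facing enzyme, gave signals of 2886, 1836, 1558 and 3343 in the 4 samples of phase 0-30 and 6742, 9698, 11065 and 10926 in those of phase 30-60. It was at 9551 to 12824 in phase 60-120, with a median of 11525, and the 4 samples of phase 0-30 lay below every sample of the other windows. Medians of the later windows were 9607 in phase 120-180, 8427 in phase 180-240, 7819 in phase 240-300 and 6887 in phase 300-360, with samples between 5142 and 10472. The log2 difference of NDI1 was -1.91 (SE 0.11, adjusted p = 5.27e-19) in phase 0-30 and 0.13 (SE 0.11, adjusted p = 0.276) in phase 30-60. From phase 0-60 to phase 60-120 it rose by 1.29 (SE 0.24, adjusted p = 5.32e-06).

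NDE2, an external enzyme, dipped later and deeper. Its signals were 5214, 2583, 971 and 494 in phase 0-30 and 607, 880, 1519 and 2427 in phase 30-60, so each sample from 17.35 to 47.97 degrees was at most 1519. It climbed from 4373 at 63.27 degrees to 13394 at 93.89 degrees, with a median of 11216 in phase 60-120. Later medians were 9524, 9101, 10007 and 9345 in the windows from phase 120-180 to phase 300-360, with samples between 6792 and 10978. The lowest sample of NDE2 was 18.9-fold below its own median, and that of NDI1 5.44-fold. NDE2 differed by -2.56 (SE 0.28, adjusted p = 2.35e-11) in phase 0-30 and by -2.99 (SE 0.28, adjusted p = 2.5e-12) in phase 30-60. It rose by 2.78 (SE 0.26, adjusted p = 1.08e-12) to phase 60-120.

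NDE1, the other external enzyme, moved little. Its signals ran from 8920 to 12878 in phase 0-60 with a median of 10981, and from 10916 to 13986 in phase 60-120 with a median of 12030, so the windows overlap. Later medians were 11636, 11306, 11497 and 11591, with samples between 9540 and 12701. In phase 0-30 it differed by -0.23 (SE 0.06, adjusted p = 0.000516), and it rose by 0.18 (SE 0.06, adjusted p = 0.00785) to phase 60-120. That rise was not called with values as deposited, with a term in sampling time or in arrays 26 to 49.

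Ratios within an array do not change when the whole array is multiplied by 1 factor, as in the median scaling. Quantile normalization can change them. The log2 ratio of NDE2 over NDE1 was 2.60 higher in the 8 samples of phase 60-120 than in the 8 of phase 0-60 (exact permutation test, two-sided, p = 0.000311, adjusted over 3 ratios 0.000932). NDI1 over NDE1 was 1.11 higher (exact permutation p = 0.0121, adjusted 0.0182) and NDE2 over NDI1 1.49 higher (exact permutation p = 0.0322, adjusted 0.0322). The smallest p that 12870 regroupings of 8 against 8 can give is 0.0001554. The 3 enzymes moved by unequal amounts, and single samples of the 2 windows overlap for each ratio. In arrays 1 to 25 alone, with 5 samples of each window, NDI1 over NDE1 differed by 0.83 (exact permutation, adjusted p = 0.238), and both ratios of NDE2 still passed (adjusted p = 0.0238). Arrays 26 to 49 alone hold 3 samples of each window, where no exact p can go below 0.1, so that subset gives no test.

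**Figure D3:**
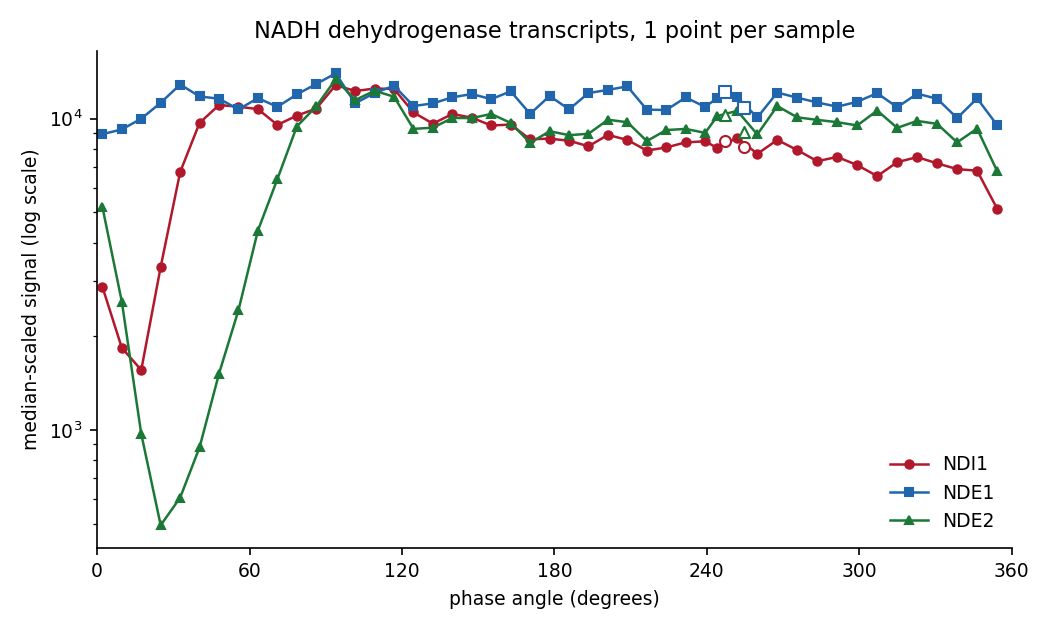
Median-scaled signal on a log scale (vertical axis) against phase angle in degrees (horizontal axis) for NDI1, NDE1 and NDE2, 1 point per sample, with open points for the 2 samples of the second pass. NDI1 is lowest at 17.35 degrees, NDE2 at 25 degrees and NDE1 stays between 8920 and 13986.

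Complex II dipped as a group. SDH1, the flavoprotein subunit that oxidizes succinate, had 8064, 6485, 3592 and 4952 in phase 0-30 and 11004, 14088, 14252 and 13844 in phase 30-60. In phase 60-120 it ran from 13654 to 19677 with a median of 16318. Later medians were 14401, 13448, 12864 and 11736, with samples between 9505 and 14903. The 4 samples before 30 degrees lay below every sample of the other windows. SDH1 differed by -1.30 (SE 0.09, adjusted p = 3.66e-16) in phase 0-30 and rose by 0.94 (SE 0.16, adjusted p = 1.32e-06) to phase 60-120.

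SDH2, the iron-sulfur subunit, had 9601, 6308, 4672 and 7238 in phase 0-30 and 11262, 13456, 13888 and 13598 in phase 30-60. In phase 60-120 it ran from 13891 to 22932 with a median of 17591, and later medians were 16821, 15449, 15424 and 14672, with samples between 11416 and 17478. It rose by 0.91 (SE 0.14, adjusted p = 1.12e-07). SDH3, a membrane anchor, ran from 6097 to 11328 in phase 0-60 and from 11120 to 16678 in phase 60-120, with medians of 8503 and 13828. Later medians of SDH3 were 12432, 11814, 11736 and 11080, with samples between 9019 and 13086. It rose by 0.68 (SE 0.10, adjusted p = 2.16e-08), and SDH4, the other anchor, by 0.78 (SE 0.12).

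In complex III, RIP1, the Rieske iron-sulfur protein, ran from 6119 to 12876 in phase 0-60 with a median of 9552, and from 12392 to 17421 in phase 60-120 with a median of 14687. Only 1 sample of phase 0-60, at 47.97 degrees, reaches the lowest of phase 60-120. Later medians were 13487, 12570, 12473 and 11671, with samples between 9576 and 14474. RIP1 rose by 0.68 (SE 0.10, adjusted p = 1.24e-07). The array carries 3 further control probe sets for RIP1, along the 3′ part, the middle and the 5′ part of the transcript, and their log2 differences between the same windows were 0.71, 0.85 and 0.83. The log2 ratio of the 3′ over the 5′ control averaged 0.34 ± 0.06 (SD, n = 4) during phase 0-30. It was 0.15 ± 0.11 (SD, n = 8) for the samples of phase 60-120, and 0.31 ± 0.08 (SD, n = 7) for those of phase 300-360. The part of RNA length in the members' values was not tested.

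**Figure D4:**
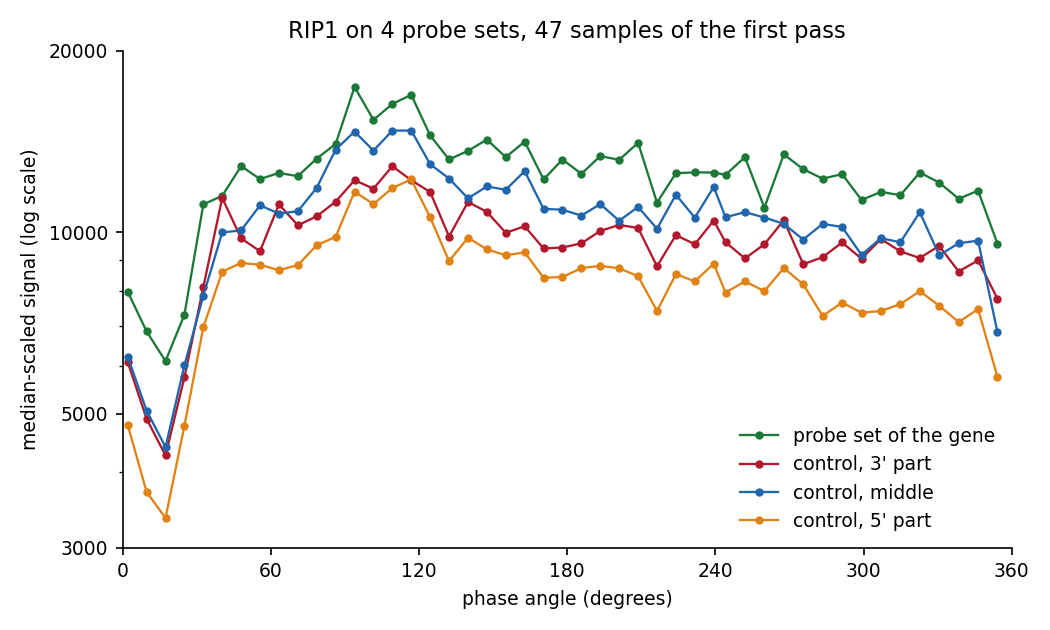
Median-scaled signal on a log scale (vertical axis) against phase angle in degrees (horizontal axis) for RIP1 on its own probe set and on 3 control probe sets, in the 47 samples of the first pass. All 4 probe sets are lowest at 17.35 degrees.

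QCR8, a small subunit near the ubiquinone side, was the dimmest member, with a median signal of 2619, and the most erratic. It stood at 2523 at 116.85 degrees and 9605 at 124.51 degrees, neighbouring samples. Its signals ran from 705 to 5150 in phase 0-60 and from 2523 to 6458 in phase 60-120, with medians of 2140 and 3029, and the windows overlap. Later medians were 4160, 3168, 2304 and 2596, with samples between 1470 and 9605. The rise of 0.68 (SE 0.32, adjusted p = 0.0464) was lost with values as deposited, with quantile normalization, with a term in sampling time and in arrays 1 to 25. QCR7, another small subunit, ran from 8931 to 12339 in phase 0-60 and from 11552 to 16054 in phase 60-120, with medians of 11460 and 13451. Later medians of QCR7 were 12714, 12503, 12348 and 11982, with samples between 9370 and 13936, and it rose by 0.30 (SE 0.07, adjusted p = 0.000156), the least in its complex. The core proteins COR1 and QCR2 rose by 0.66 and 0.43, cytochrome c1 (CYT1) by 0.64, and the small subunits QCR6, QCR9 and QCR10 by 0.46, 0.49 and 0.45.

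Complex IV, in which these nuclear subunits surround the catalytic core, had rises of 0.24 to 0.61, against 0.30 to 0.68 in complex III. COX13 ran from 8819 to 11972 in phase 0-60 and from 12280 to 19701 in phase 60-120, with medians of 9914 and 15586, and the windows do not overlap. Later medians were 15512, 14302, 14906 and 14495, with samples between 11574 and 18743. COX13 rose by 0.61 (SE 0.08, adjusted p = 1.38e-08), and it was still low in phase 30-60, by -0.45 (SE 0.09, adjusted p = 9.29e-06). COX6 ran from 6578 to 11107 in phase 0-60 and from 10342 to 15638 in phase 60-120, with medians of 8242 and 13364. Later medians of COX6 were 13006, 12561, 11497 and 11173, with samples between 9032 and 13841, and it rose by 0.60 (SE 0.09, adjusted p = 5.62e-08). COX9 moved least, from 8055 to 10896 and then 10398 to 13091, with medians of 9981 and 11172. Its later medians were 10845, 11032, 10915 and 10520, with samples between 8881 and 12415, and its rise was 0.24 (SE 0.06, adjusted p = 0.000736). COX4, COX7, COX8 and COX12 rose by 0.36, 0.40, 0.37 and 0.50.

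Among the subunits of the ATP synthase, 12 of 13 rose. ATP17, a subunit of the membrane part, ran from 7169 to 11027 in phase 0-60 and from 11225 to 15138 in phase 60-120, with medians of 9278 and 13309, and the windows do not overlap. Later medians were 12268, 12098, 11872 and 10894, with samples between 8496 and 14094. ATP17 rose by 0.55 (SE 0.08, adjusted p = 4.03e-08). ATP3, the gamma subunit of the rotating stalk, ran from 7941 to 12602 and then from 12315 to 16284, with medians of 9247 and 14145. Later medians of ATP3 were 12431, 11942, 11510 and 11363, with samples between 9183 and 12635, and it rose by 0.55 (SE 0.07, adjusted p = 8.76e-09).

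ATP20, the g subunit, which takes part in joining ATP synthases into dimers, did not follow the others. It ran from 8063 to 12716 in phase 0-60 and from 9892 to 13542 in phase 60-120, with medians of 10836 and 11554, and the windows overlap widely. Later medians were 10660, 10073, 8890 and 9358, with samples between 7904 and 11223. Its difference from phase 0-60 to phase 60-120 was 0.08 (SE 0.07, adjusted p = 0.281). In phase 30-60 it was high, by 0.24 (SE 0.06, adjusted p = 0.000761), and its fitted cosine peaked at 112 degrees. TIM11, the e subunit that also acts in dimers, rose by 0.30 (SE 0.07), and its phase 30-60 difference was 0.07 (adjusted p = 0.23). The catalytic alpha and beta subunits ATP1 and ATP2 rose by 0.24 and 0.34, the central stalk subunits ATP15 and ATP16 by 0.48 and 0.52, the peripheral stalk subunits ATP4, ATP5, ATP7 and ATP14 by 0.47, 0.47, 0.43 and 0.43, and ATP18 by 0.50.

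In the second pass the members lay near their first-pass values. The members' median stood at 0.09 and -0.07 on the log2 scale in the samples at 246.97 and 254.63 degrees of the cycle, against 0.02 and 0.05 in the first-pass samples at 244.11 and 251.97 degrees. No test was made of 2 samples against 2.

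Related lists of genes were set beside the members, as counts for phase 60-120 against phase 0-60, where 45.8% of all probe sets rose and 37.6% fell. Of 12 measured other subunits and partners of the complexes, 11 rose and 1 fell, with a median ratio of 2.58. The largest were STF2, which acts with the inhibitor of the ATP synthase, with a log2 difference of 2.77 (SE 0.31), and CYC7, the minor form of cytochrome c, with 2.34 (SE 0.24). Of 12 measured genes of the tricarboxylic acid cycle, which feeds electrons to complex II and the NADH dehydrogenases, 10 rose and 0 fell, with a median ratio of 1.67. CIT3, a mitochondrial citrate synthase isoform, differed by 3.86 (SE 0.38), and LSC2, a subunit of succinyl-CoA ligase, by 1.33 (SE 0.13). Of 7 regulators, 4 rose and 2 fell. HAP5, a subunit of the CCAAT-binding activator of respiratory genes, rose by 0.93 (SE 0.12). PUF3, which binds transcripts for mitochondrial proteins, rose by 0.75 (SE 0.20). PUF3 was dim, with a median deposited signal of 78. It was not called low in phase 0-60 (limma, adjusted p = 0.20), and its lowest sample lay at 307.04 degrees. The 2 regulators that fell, named after their values were seen, were HAP3, another subunit of the CCAAT-binding activator, at -0.33 (SE 0.11), and ROX1, a repressor of hypoxic genes, at -0.59 (SE 0.17). Of 14 mitochondrial carriers and porins, 7 rose and 5 fell, shares near those of all probe sets, with a median ratio of 1.11. The oxaloacetate carrier OAC1 fell by 2.87 (SE 0.22) and the citrate carrier CTP1 fell by 2.64 (SE 0.21), opposite to the members.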

How the data were processed

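The authors deposited 1 linear intensity per probe set and array. The submitters' processing notes name GCOS, with version and settings not given in the sources used here. Platform annotation gave 1 S. cerevisiae gene for 5498 of 10928 probe sets, with 12 symbols updated from a RefSeq gene table. Probe sets with a median signal above 11.2, the 75th percentile of the medians of other-species probe sets, were tested (5470, with 28 removed). Each array was scaled to the median of 1902, a floor of 1 was applied and signals were put on the log2 scale. The number of arrays limits the precision.

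Tests used limma 3.58.1 in R 4.3.3 (lmFit, eBayes, Benjamini-Hochberg over all tested probe sets at 0.05). The cosine fit used 49 samples, and the window fits 47 with 1 shared estimate of the spread. Ratios of the NADH dehydrogenases used an exact permutation test. The fits were tested on simulated data. Alternatives were other scalings, filters and offsets, terms in array number and sampling time, arrays 1 to 25 or 26 to 49 alone and 2 harmonics.

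The members and lists were chosen with earlier results of these data known. Values of every window were given for the NADH dehydrogenases and, in each of complexes II to V, the 2 members with the largest and the 1 with the smallest difference between phase 60-120 and phase 0-60. At most 2 called genes were named per other list. Tables and plots were made with pandas 2.3.3, numpy 2.4.6 and matplotlib 3.10.9 under Python 3.11.15.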

Additional observations from a re-analysis of the deposited data

Results flagged for a closer look

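Each window of the 15 members described by window was searched for a sample apart from the rest, by Dixon's criterion at the 5% level. Of 90 groups tested, 7 held one. Chance flags about 1 in 20 groups of independent samples, but these samples follow each other in time and the genes share arrays. In phase 300-360 the sample at 354.23 degrees was far below the others for NDI1 (5142, next 6540), RIP1 (9576, next 11369) and COX6 (9032, next 10678). These genes were lower still in the following sample, at 2.04 degrees, with 2886, 7976 and 7871. In phase 120-180 the sample at 170.43 degrees was far below the others for SDH1 (12390, next 13794), COX13 (13331, next 15183) and ATP3 (10808, next 12022). In phase 0-60 the sample at 2.04 degrees was far above the others for NDE2 (5214, next 2583). It lies on a fall of NDE2 from 6792 at 354.23 degrees to 971 at 17.35 degrees. The median of the other bright probe sets stood at -0.24 at 354.23 degrees and at -0.18 at 170.43 degrees on the log2 scale, and its part in these values was not tested.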

How the results depend on the processing

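Of 1152 differences of single members recomputed under the alternatives, 1041 kept their direction and side of the threshold, 67 were no longer called, 11 became called and 33 changed sign. No filter on low signals, an offset of 16 and a term in array number changed none of these. Counts of members within 1.5 times the main count are not repeated here. High in phase 60-120 (33) became 17 as deposited, 10 in arrays 1 to 25, 18 in arrays 26 to 49 and 8 with sampling time. High in phase 120-180 (13) became 0, 0, 3 and 0 under these settings, and 23 with quantile normalization. With quantile normalization 4 were high in phase 180-240 and 2 in phase 240-300. The single high and low calls of phase 240-300 and the 5 low calls of phase 300-360 became 0 as deposited, in both array subsets and with sampling time. In arrays 1 to 25, 1 member was high in phase 0-60. Against phase 300-360, the 22 members low in phase 0-60 became 11 as deposited and 3 in arrays 1 to 25, and the 1 high became 0 as deposited and in arrays 26 to 49. The 25 high in phase 60-120 became 3 as deposited, 5 in arrays 1 to 25, 15 in arrays 26 to 49 and 0 with sampling time. In phase 30-60, the 16 low became 2 as deposited and 10 in each array subset, and the 1 high became 3 as deposited, 2 in arrays 1 to 25 and 0 in arrays 26 to 49. Leaving out 1 sample of phase 0-60 in turn gave 9 to 16 low and 1 to 3 high in phase 30-60, and 33 to 34 low in phase 0-30, and the extremes 9 and 3 came without the sample at 32.66 degrees. The ratio NDI1 over NDE1 changed by 0.83 in arrays 1 to 25 (exact permutation, adjusted p = 0.238) and by 1.57 in arrays 26 to 49 (0.15), NDE2 over NDE1 by 2.07 (0.15) and NDE2 over NDI1 by 0.51 (1.0) in arrays 26 to 49, where 3 samples against 3 allow no p below 0.1 before adjustment and so no call. The cause of the other changes was not tested.

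Signs changed almost only in phase 30-60. As deposited, where the median of all probe sets itself stood at 0.21 in that window, the log2 differences became 0.17 for SDH1, 0.0091 for SDH3, 0.0077 for SDH4, 0.18 for COR1, 0.12 for QCR7, 0.11 for QCR8, 0.045 for QCR9, 0.0082 for QCR10, 0.16 for CYT1, 0.088 for RIP1, 0.13 for COX4, 0.13 for COX9, 0.029 for ATP1, 0.058 for ATP2, 0.11 for ATP3, 0.019 for ATP4, 0.18 for ATP5 and 0.11 for ATP7. With quantile normalization they were 0.022 for SDH1, 0.029 for COR1, 0.0057 for CYT1 and 0.017 for ATP5. In arrays 1 to 25 they were -0.018 for NDE1, 0.041 for SDH1, 0.025 for COR1 and 0.22 for QCR8. In arrays 26 to 49 they were -0.33 for NDI1, -0.11 for QCR2, 0.0051 for ATP1, -0.10 for ATP14 and -0.14 for TIM11. ATP20 stood at -0.025 in phase 0-60 in arrays 26 to 49 and at 0.033 in phase 0-30 in arrays 1 to 25. No paired analysis was possible because the replicate numbers only name successive samples.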
